A study of Capra hircus with 20 samples.

Results

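The antioxidant and NRF2 target genes NQO1, HMOX1, GCLC, GCLM, TXNRD1, SRXN1, GPX3, SOD2, CAT and SELENBP1, 10 in all, were followed in cultured goat fat cell precursors from 2 depots, before and after induction with oleic acid. They were taken by gene symbol from the mRNA table, in which 20587 gene symbols were listed, and the values of all transcripts of a symbol were summed. All 10 were among the 11432 genes whose level averaged 1 FPKM or more across all 20 libraries. FPKM, fragments divided by the length of the transcript and by the mapped fragments of the library, is a level per length, so genes can be compared with each other on it.

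Cells came from the longissimus dorsi muscle and from the subcutaneous fat of 5 male Jianzhou Daer goats aged 7 days, and were used at passage 3. Intramuscular preadipocytes (IMPA) and subcutaneous preadipocytes (SPA) were harvested at day 0, and intramuscular adipocytes (IMA) and subcutaneous adipocytes (SA) after 3 days in medium with serum and oleic acid, with 5 libraries in each group. Age, sex, breed, passage and basal medium were shared by all 4 groups, and no group was kept for 3 days without oleic acid. Time in culture and oleic acid can therefore not be told apart, and the words induction and adipocyte are used below only as the labels use them.

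NRF2, encoded by NFE2L2, is a transcription factor that KEAP1 holds in the cytoplasm and hands over for degradation. When oxidants or electrophiles modify KEAP1, NRF2 accumulates, pairs with a small MAF protein and binds antioxidant response elements near genes for quinone reduction, glutathione synthesis, the thioredoxin cycle and heme breakdown. In fat cells, peroxides and reactive aldehydes arise during lipid storage and fatty acid oxidation, and these enzymes remove them or restore the reducing cofactors.

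The labelled cell types were checked against marker genes. Of 9 adipocyte markers, 8 were in the table under the symbols used, and their summed level lay between 11.25 and 12.2 FPKM in IMPA, 7.32 and 8.517 FPKM in IMA, 11.03 and 12.49 FPKM in SPA, and 10.18 and 12.42 FPKM in SA. Most of the sum came from CEBPA, with means of 9.229, 5.415, 5.054 and 3.91 FPKM in IMPA, IMA, SPA and SA, and in subcutaneous cells from CIDEC, at 4.653 and 4.346 FPKM in SPA and SA. The adipogenic regulator PPARG was at 0.4754, 0.364, 0.6238 and 1.032 FPKM in the 4 groups and LPL at 1.017, 0.9414, 0.5486 and 1.339 FPKM. The adipokine gene ADIPOQ did not exceed 0.4772 FPKM in IMA and 0.5963 FPKM in SA, the lipid droplet gene PLIN1 did not exceed 0.4379 and 0.3754 FPKM there, and LEP was listed at 0 in every SA library. ADIPOQ, PLIN1 and LEP were thus near 0 in both groups labelled adipocytes, and the mean summed level was not higher than in the preadipocytes of the same depot. The marker missing from the sum was FABP4, which was not listed under its symbol, so its level is unknown. The study itself based the adipocyte label on lipid droplets seen with Oil Red O after 3 days and on lower Pref-1 expression than in preadipocytes. Of 13 skeletal muscle markers, 12 were in the table, and their sum lay between 3515 and 4033 FPKM in IMPA and between 12834 and 13595 FPKM in IMA. The same sum lay between 6.997 and 24.4 FPKM in SPA and between 7.665 and 9.643 FPKM in SA, with MYOD1 listed at 0 in every SPA library and CKM in every SA library. Every difference between depots and every intramuscular change given below moves with this muscle signal, and its part in them was not tested. Each library is a bulk sample, in which fewer cells of a type and less RNA per cell cannot be told apart.

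All 10 genes were higher in SA than in IMA, where 72.4% of all genes were called, 43.4% higher in SA. In preadipocytes 8 were higher and 1 lower in SPA than in IMPA, where 75.1% of all genes were called, 32.9% higher in SPA. Over induction the genes did not move as a group. HMOX1 and SELENBP1 fell in both cell types, and SRXN1, TXNRD1 and GPX3 rose in both, GPX3 in intramuscular cells by a change that several other settings did not keep. SOD2 fell in subcutaneous cells, GCLM fell in intramuscular cells, GCLC fell in intramuscular and rose in subcutaneous cells, CAT rose in intramuscular cells, and NQO1 rose by a small amount in subcutaneous cells.

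**Figure D1:**
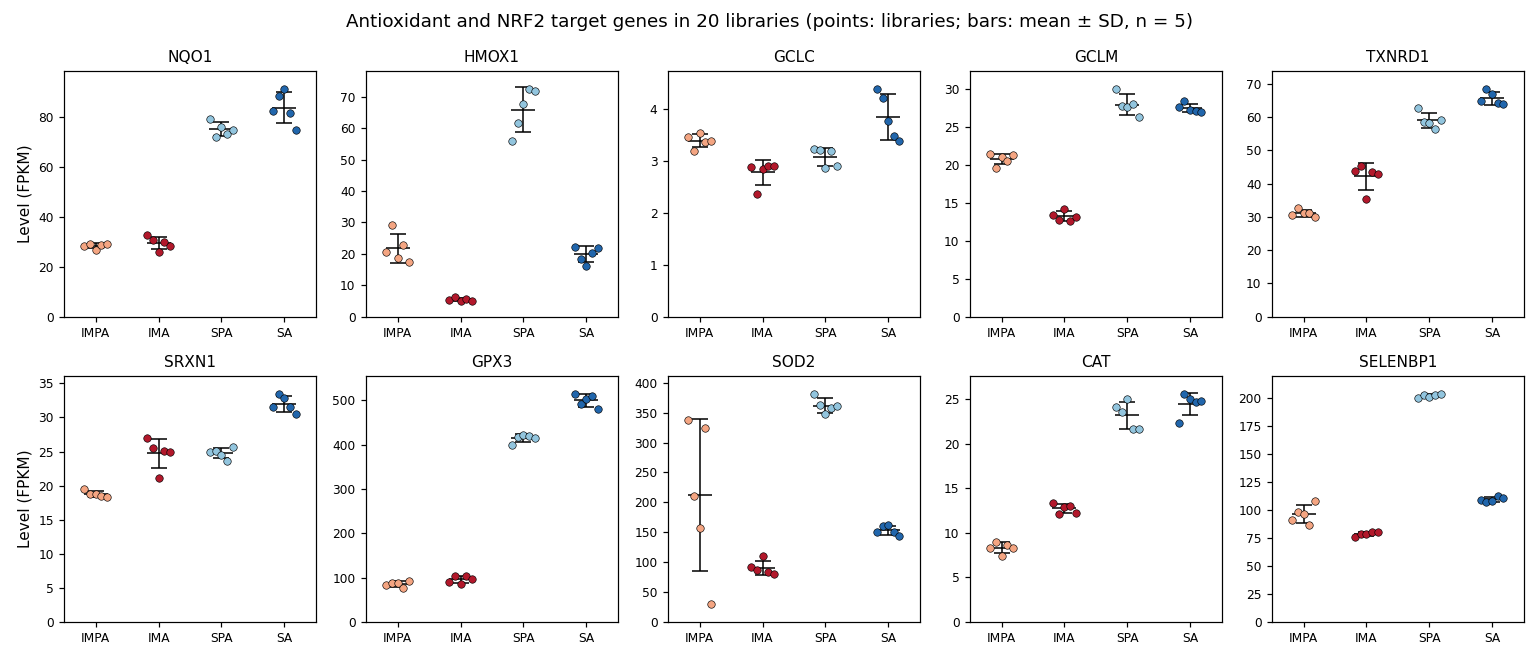
Level (FPKM, linear axes from 0) of each of the 10 genes in the 20 libraries, with points for libraries and bars for the mean ± SD of 5 libraries in each of IMPA, IMA, SPA and SA. GPX3, NQO1, CAT, TXNRD1 and GCLM separate the depots with no shared values, HMOX1 falls in both cell types, and SOD2 spreads from 29.85 to 338.3 FPKM in IMPA.

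Heme oxygenase, encoded by HMOX1, opens heme into biliverdin, iron and carbon monoxide and is among the best known genes activated by NRF2 and held down by BACH1. In replicates 1 to 5 of IMPA its level was 20.55, 29.29, 18.59, 22.65 and 17.34 FPKM. In IMA it was 5.192, 6.341, 4.984, 5.659 and 5.069 FPKM. No IMA library reached the lowest IMPA library. In SPA the level was 56.08, 61.51, 67.66, 72.51 and 71.99 FPKM. In SA it was 22.3, 18.22, 16.22, 20.29 and 22.0 FPKM. Again the 2 stages did not overlap. The mean fell 3.98-fold in intramuscular cells, a log2 fold change of -1.80 (SE 0.12, limma adjusted p = 1.9e-07), and 3.33-fold in subcutaneous cells, by -1.69 (SE 0.09, adjusted p = 1.8e-08). The difference between these changes was 0.11 (SE 0.16, adjusted p = 0.587), with an interval of 2 SE from -0.21 to 0.42. Between depots HMOX1 was 3.04-fold higher in SPA than in IMPA and 3.64-fold higher in SA than in IMA. The order was SPA, IMPA, SA and IMA, and only the neighbours IMPA and SA shared values.

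NQO1, the quinone reductase that transfers electrons from NAD(P)H to quinones, separated the depots rather than the stages. Its level was 28.16, 29.3, 26.77, 28.91 and 29.02 FPKM in the 5 IMPA libraries and 32.63, 30.87, 25.98, 30.06 and 28.17 FPKM in the 5 IMA libraries. In SPA it was 79.41, 72.08, 76.19, 73.43 and 74.77 FPKM, and in SA 82.59, 88.65, 91.4, 81.84 and 75.12 FPKM. Every subcutaneous library was above every intramuscular one, whereas the stages overlapped within each depot. The log2 difference was 1.37 (SE 0.04, adjusted p = 3.6e-12) between SPA and IMPA and 1.48 (SE 0.06, adjusted p = 5.3e-11) between SA and IMA. Over induction the change was 0.05 (SE 0.06, adjusted p = 0.461) in intramuscular cells, where 2 SE reach from -0.06 to 0.16. In subcutaneous cells NQO1 rose by 0.15 (SE 0.05, adjusted p = 0.0216), and this call was lost when SPA2 (adjusted p = 0.0539) or SA2 (adjusted p = 0.0534) was left out and when FPKM were rescaled to a common sum over the mRNA table (0.09, adjusted p = 0.079). It was also lost after quantile normalization (0.08, adjusted p = 0.101), without a filter on low levels (adjusted p = 0.0506) and in the fit of single transcripts (adjusted p = 0.0545).

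Glutamate-cysteine ligase makes the first and limiting step of glutathione synthesis and consists of a catalytic subunit, GCLC, and a modifier subunit, GCLM, that raises its activity. GCLM was 21.39, 19.64, 20.96, 20.56 and 21.24 FPKM in IMPA. It was 13.43, 12.66, 14.16, 12.54 and 13.18 FPKM in IMA. In subcutaneous cells it was 29.99, 27.78, 27.66, 27.95 and 26.24 FPKM in SPA and 27.58, 28.39, 27.24, 27.11 and 27.0 FPKM in SA. The 2 subcutaneous stages shared values, while both intramuscular stages stood below them and apart from each other. GCLM fell by 0.62 on the log2 scale in intramuscular cells (SE 0.04, adjusted p = 2.6e-07). In subcutaneous cells its change was -0.02 (SE 0.04, adjusted p = 0.643), with 2 SE from -0.10 to 0.05, and it was called lower only after rescaling to a common sum (-0.09, adjusted p = 0.0419). The difference between the changes was 0.60 (SE 0.05, adjusted p = 8.9e-09).

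The catalytic subunit was the lowest of the 10 genes, with means between 2.78 FPKM in IMA and 3.84 FPKM in SA. GCLC fell in intramuscular cells by 0.22 on the log2 scale (SE 0.05, adjusted p = 0.00397) and rose in subcutaneous cells by 0.25 (SE 0.07, adjusted p = 0.0075). These opposite changes differed by 0.46 (SE 0.08, adjusted p = 8.1e-05). All neighbours in the order SA, IMPA, SPA and IMA shared values. GCLC was read from 2 transcripts, of which the more abundant held between 39.99% and 99.69% of the level, depending on the library. Tested as a single transcript, the intramuscular change was no longer called (-0.21, adjusted p = 0.4). The lower level in SPA than in IMPA (-0.11, SE 0.05, adjusted p = 0.0459) was lost under most alternatives and turned to 0.04 after quantile normalization. On the FPKM scale the mean of GCLM was 6.13, 4.75, 9.09 and 7.16 times that of GCLC in IMPA, IMA, SPA and SA.

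TXNRD1, the cytosolic selenoenzyme that keeps thioredoxin reduced, and SRXN1, which restores overoxidised peroxiredoxins, rose in both cell types. TXNRD1 ranged from 29.93 to 32.74 FPKM in IMPA, 35.27 to 45.4 FPKM in IMA, 56.53 to 62.67 FPKM in SPA and 63.98 to 68.43 FPKM in SA. No 2 groups of TXNRD1 shared values. It rose by 0.42 (SE 0.06, adjusted p = 9.6e-05) in intramuscular and by 0.15 (SE 0.03, adjusted p = 0.00244) in subcutaneous cells, and the subcutaneous change was the smaller one by -0.27 (SE 0.07, adjusted p = 0.00315). SRXN1 ranged from 18.26 to 19.55 FPKM in IMPA, 21.18 to 26.94 FPKM in IMA, 23.62 to 25.59 FPKM in SPA and 30.5 to 33.41 FPKM in SA. Its levels in SPA and IMA shared values and had means of 24.73 and 24.71 FPKM. SRXN1 rose by 0.38 (SE 0.06, adjusted p = 0.00012) in intramuscular and by 0.36 (SE 0.03, adjusted p = 3.5e-06) in subcutaneous cells. The difference between its changes was -0.02 (SE 0.07, adjusted p = 0.834), with 2 SE from -0.15 to 0.11. In the library IMA3, 5 of the 10 genes, TXNRD1, SRXN1, NQO1, HMOX1 and GPX3, were at their lowest level of the group, and GCLM and SOD2 were at their highest.

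GPX3, the glutathione peroxidase that cells secrete, had the largest depot difference of the 10 genes in the fits without a library-size term. It was 83.42, 86.81, 87.36, 75.26 and 91.78 FPKM in IMPA and 90.95, 103.1, 85.44, 103.9 and 97.38 FPKM in IMA. In SPA it was 399.7, 417.8, 421.4, 420.6 and 416.1 FPKM, and in SA 513.9, 491.8, 502.7, 510.0 and 480.3 FPKM. All subcutaneous libraries lay far above all intramuscular ones. With the library-size term of Ballgown, the difference between SPA and IMPA was 1.88 (adjusted p = 0.0637), below those of SOD2, HMOX1, CAT and NQO1. The mean was 4.89-fold higher in SPA than in IMPA (log2 difference 2.28, SE 0.05, adjusted p = 3.4e-13) and higher still in SA than in IMA (log2 difference 2.37, SE 0.05, adjusted p = 2.5e-14). GPX3 rose by 0.27 over induction in subcutaneous cells (SE 0.03, adjusted p = 2e-05) without overlap. In intramuscular cells the stages overlapped, and the rise of 0.18 (SE 0.06, adjusted p = 0.0312) was lost when IMPA1, IMPA4, IMA2, IMA4 or IMA5 was left out, with adjusted p values up to 0.0797.

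CAT, the catalase that breaks down hydrogen peroxide in peroxisomes, also lay higher in subcutaneous cells. Its level was 8.298, 8.951, 7.389, 8.666 and 8.31 FPKM in IMPA and 13.36, 12.13, 12.9, 13.04 and 12.26 FPKM in IMA. In SPA it was 24.1, 23.53, 24.98, 21.68 and 21.58 FPKM, and in SA 22.25, 25.53, 24.98, 24.65 and 24.72 FPKM. The intramuscular stages stood apart, and the subcutaneous stages overlapped. CAT rose by 0.56 in intramuscular cells (SE 0.05, adjusted p = 3e-06), and its subcutaneous change was 0.07 (SE 0.05, adjusted p = 0.239), with 2 SE from -0.03 to 0.17. The changes differed by -0.49 (SE 0.07, adjusted p = 7.7e-06). The depot difference was 1.37 (SE 0.06, adjusted p = 1.8e-10) between preadipocytes and 0.89 (SE 0.05, adjusted p = 5.3e-10) between adipocytes.

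SELENBP1 is a selenium-binding protein that oxidises methanethiol. In SPA its level was 200.2, 203.1, 201.0, 203.3 and 203.6 FPKM, with a coefficient of variation of 0.773%, the smallest of the 10 genes in the 4 groups. In SA it was 109.3, 107.4, 108.1, 112.4 and 110.6 FPKM. All SA libraries were thus far below all SPA libraries. In IMPA the level was 90.97, 98.62, 96.6, 86.69 and 107.7 FPKM, and in IMA 76.0, 78.22, 78.76, 80.33 and 80.36 FPKM. The fall was 0.88 on the log2 scale in subcutaneous cells (log2 fold change -0.88, SE 0.02, adjusted p = 9.2e-11) and smaller in intramuscular cells (-0.28, SE 0.05, adjusted p = 0.00058), a difference of -0.60 (SE 0.06, adjusted p = 2.2e-08). SELENBP1 was higher in SPA than in IMPA by 1.07 (SE 0.05, adjusted p = 7.3e-10) and in SA than in IMA by 0.47 (SE 0.03, adjusted p = 1.6e-08).

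SOD2, the manganese superoxide dismutase of mitochondria, was highest in SPA, at 380.8, 362.9, 348.0, 357.4 and 360.4 FPKM. In SA it was 149.6, 160.5, 161.9, 150.2 and 143.1 FPKM, and in IMA 91.31, 86.11, 109.4, 82.97 and 79.32 FPKM. These 3 groups did not overlap. In IMPA it was 338.3, 211.1, 157.1, 324.0 and 29.85 FPKM, so that IMPA alone reached from below the lowest IMA library to near the lowest SPA library. The highest IMPA library was 11.3 times the lowest, and the SD on the log2 scale was 1.42, larger than that of 99.9% of the genes tested in this group. SOD2 fell by 1.24 on the log2 scale in subcutaneous cells (SE 0.04, adjusted p = 2.1e-10).

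With the 5 IMPA libraries, the intramuscular change of SOD2 was -0.85 (SE 0.53, adjusted p = 0.182), with 2 SE from -1.90 to 0.20. Without IMPA5 it was -1.45 (adjusted p = 8.4e-05) and called lower. The difference between SPA and IMPA was 1.16 (SE 0.52, adjusted p = 0.0605) with all libraries, although no values were shared. It was called without IMPA5 (0.56, adjusted p = 0.0156), without IMPA1 (1.42, adjusted p = 0.0287), without IMPA4 (1.41, adjusted p = 0.0316), and with all 4 groups in the fit (1.16, adjusted p = 0.0129). The difference between the 2 changes over induction was -0.39 (SE 0.56, adjusted p = 0.583) and turned to 0.21 (adjusted p = 0.402) without IMPA5. SOD2 in SA was above IMA by 0.77 (SE 0.07, adjusted p = 3.4e-07), a call lost with all 4 groups in the fit (adjusted p = 0.0871).

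The low SOD2 of IMPA5 did not stand alone. Among 5567 genes with an IMPA median of at least 10 FPKM, 16 were below 0.25 of that median in IMPA5, against 0 or 1 gene in each of the other 4 IMPA libraries, and none was over 4 times the median in any of them. This search was made after the values of SOD2 had been seen. Named among the 16 were the chemokines CCL20 and CXCL8, the complement factor CFB, the pattern recognition protein PTX3, the prostaglandin synthase PTGS2 and the cytokine IL6, beside the lipid transfer protein PLTP and 8 genes with LOC symbols. CXCL8 was 72.7, 85.84, 30.35, 80.08 and 2.68 FPKM in IMPA1 to IMPA5. IL6 was 88.63, 76.57, 38.15, 81.73 and 11.61 FPKM. In both, IMPA5 was lowest, as the genes were chosen for that, and IMPA3 was next, as for SOD2. Of the 16 genes, only CCL20 had another library next, IMPA2 at 102.9 FPKM beside 104.8 FPKM in IMPA3. IMPA5 also had the lowest median correlation with its own group, 0.988, against 0.993 to 0.996 for the other 19 libraries. In the quality figures of the study, IMPA5 had the lowest share of high-quality bases of all libraries. It also had the highest GC content and mapped share, with IMPA3 next in both. The part of these in the low values was not tested. HMOX1, at 17.34 FPKM, was also lowest in IMPA5 with IMPA3 next, but within a range of 1.69 times from lowest to highest. GCLM was at 21.24 FPKM in IMPA5, near the top of its group, and the calls of both genes between IMA and IMPA held without it.

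**Figure D2:**
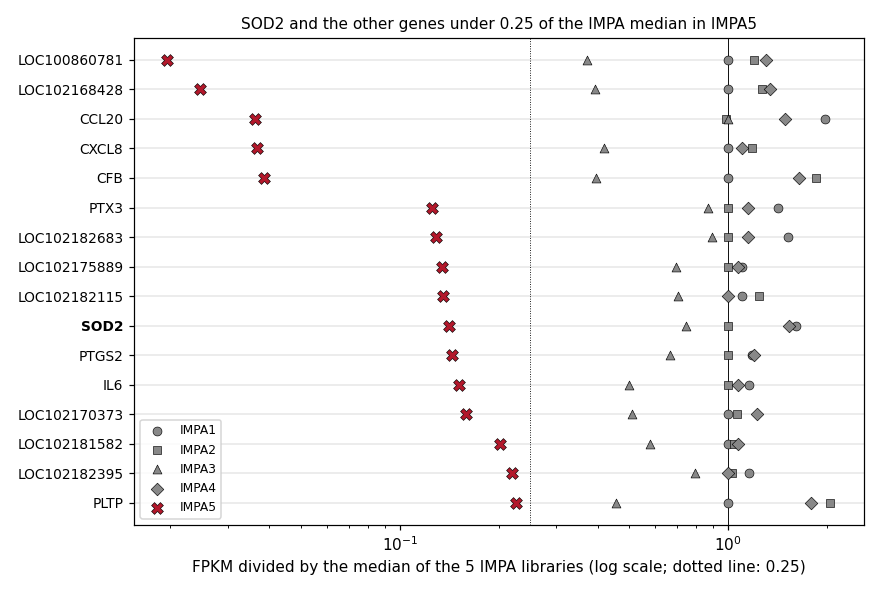
FPKM divided by the median of the 5 IMPA libraries (log axis) for SOD2 and the other 15 genes below 0.25 of that median in IMPA5, with a symbol for each library, a solid line at the median and a dotted line at 0.25. IMPA5 lies left of the dotted line for all 16 genes, as they were chosen, and the other 4 libraries lie right of it.

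Counted together over induction in intramuscular cells, 4 of the 10 genes rose and 4 fell, and 7 had stages without shared values. Of all genes tested, 60.1% were called in this comparison, 19.9% higher and 40.2% lower in IMA, and 43.5% had groups without overlap, 14.3% higher and 29.2% lower. In subcutaneous cells 5 rose and 3 fell, and 7 did not overlap, where 52.1% of all genes were called, 26.1% higher and 26% lower, and 38.8% did not overlap, 19.8% higher and 19% lower. An ordinary linear model per gene with the library-size term of Ballgown called 3 of the 10 genes between IMA and IMPA, HMOX1, GCLM and CAT, and 1331 of all genes in place of 6867. In the limma fits the median log2 fold change of all 10 genes was -0.08 in intramuscular and 0.11 in subcutaneous cells, beside -0.09 and -0.01 over all genes. The balance of calls over all genes depended on scaling, with 2276 higher and 4591 lower in IMA against 3110 and 3317 after upper-quartile scaling, and 2982 higher and 2975 lower in SA against 2327 and 4038 after rescaling to a common sum.

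**Figure D3:**
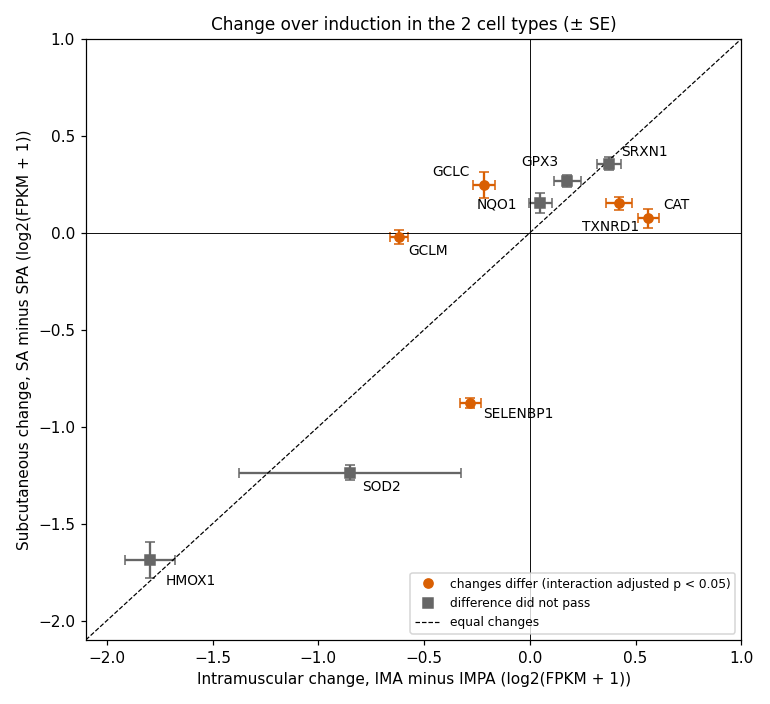
Change over induction of the 10 genes on the log2(FPKM + 1) scale, IMA minus IMPA on the x axis and SA minus SPA on the y axis, with bars of ± SE and a dashed line of equal changes. GCLC, GCLM, TXNRD1, CAT and SELENBP1, in orange, had changes that differed between cell types in the interaction test, and HMOX1 lies near the dashed line at -1.80 and -1.69.

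The changes in the 2 cell types differed for 5 of the 10 genes, more positive in subcutaneous cells for GCLC and GCLM and more negative for TXNRD1, CAT and SELENBP1. Over all genes 55.3% were called in this interaction, 34.6% more positive and 20.7% more negative, and the split of 3951 and 2368 genes became 3121 and 3022 after upper-quartile scaling. With the library-size term of Ballgown, 3 of the 10 genes were called, GCLM, CAT and SELENBP1. For NQO1, HMOX1, SRXN1, GPX3 and SOD2 the difference did not pass, which does not show that their changes were equal.

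Between depots, 8 of the 10 genes were higher and 1, GCLC, lower in SPA than in IMPA, where 75.1% of all genes were called, 32.9% higher and 42.3% lower. The groups did not overlap for 9 of them, as for 63.4% of all genes, 27.5% higher and 35.9% lower. With the library-size term of Ballgown, 2 of the 10 genes, NQO1 and CAT, and 792 of all genes in place of 8588 were called between SPA and IMPA. In adipocytes 10 of 10 were higher in SA than in IMA and did not overlap, where 72.4% of all genes were called, 43.4% higher and 29% lower, and 58.6% did not overlap, 34.7% higher and 24% lower. The linear model with the library-size term of Ballgown lost 2 of these calls, GCLC (0.43, adjusted p = 0.0618) and SRXN1 (0.14, adjusted p = 0.272). The median log2 difference of the 10 genes was 1.11 between preadipocytes and 0.83 between adipocytes, beside -0.05 and 0.09 over all genes. The comparisons by depot and by stage use the same libraries and are given side by side, not as separate evidence.

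**Figure D4:**
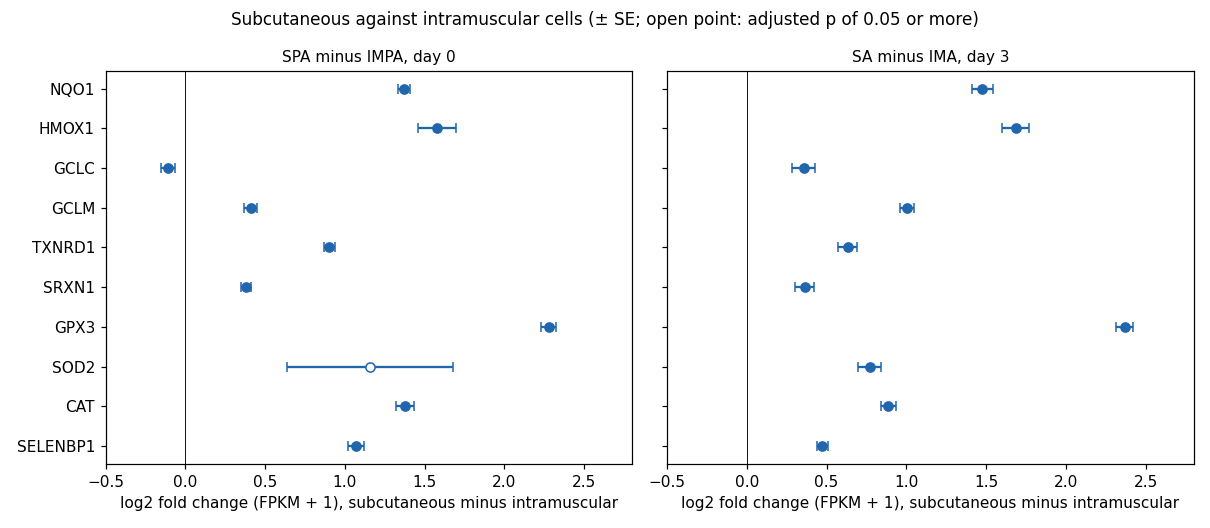
Difference between depots, subcutaneous minus intramuscular, on the log2(FPKM + 1) scale for the 10 genes, with bars of ± SE, for preadipocytes (SPA minus IMPA) and adipocytes (SA minus IMA), with an open point for the SOD2 difference that did not pass the test. GPX3 has the largest difference at both stages, 2.28 and 2.37, and GCLC the smallest, -0.11 and 0.36.

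The regulators of the pathway moved in their own ways. NFE2L2, which encodes NRF2 itself, was 16.84, 15.67, 16.94, 16.38 and 14.99 FPKM in IMPA and 27.02, 34.96, 29.89, 32.68 and 28.53 FPKM in IMA. In SPA it was 20.92, 27.61, 24.15, 24.9 and 27.85 FPKM, and in SA 25.31, 29.68, 42.22, 31.56 and 25.23 FPKM. IMPA was below every other library, and the other 3 groups shared values. Its transcript rose by 0.88 in intramuscular cells (SE 0.07, adjusted p = 5.8e-07), was 0.60 higher in SPA than in IMPA (SE 0.07, adjusted p = 6e-06), and differed by -0.01 (SE 0.12, adjusted p = 0.938) between SA and IMA. In subcutaneous cells its change was 0.27 (SE 0.13, adjusted p = 0.0954), and the changes differed by -0.61 (SE 0.15, adjusted p = 0.00179). In adipocytes the 10 genes were higher in SA than in IMA while the NFE2L2 transcript was at 30.8 FPKM (SD 6.96) and 30.6 FPKM (SD 3.20). These are transcript levels, and the amount and location of the NRF2 protein were not measured.

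KEAP1, which marks NRF2 for degradation, fell in intramuscular cells by 0.36 (log2 fold change -0.36, SE 0.05, adjusted p = 9.1e-05) and rose in subcutaneous cells by 0.21 (SE 0.05, adjusted p = 0.00567), a call lost after rescaling to a common sum (0.16, adjusted p = 0.0621). Its means were 13.4, 10.2, 11.8 and 13.9 FPKM in IMPA, IMA, SPA and SA. NFE2L1, which encodes the related factor NRF1, rose by 0.82 in intramuscular cells (SE 0.05, adjusted p = 6.3e-08), and its means of 57.0 and 101.8 FPKM in IMPA and IMA stood far above those of 28.9 and 26.5 FPKM in SPA and SA. BACH1, the repressor that competes with NRF2 at HMOX1, fell in subcutaneous cells by 0.36 (log2 fold change -0.36, SE 0.04, adjusted p = 2.3e-05) and changed by 0.03 (adjusted p = 0.707) in intramuscular cells. MAFF, a small MAF partner, was higher in SPA than in IMPA by 1.03 (SE 0.05, adjusted p = 2.1e-09). It rose in intramuscular cells by 0.79 (adjusted p = 1.9e-06) and fell in subcutaneous cells by 0.38 (log2 fold change -0.38, SE 0.06, adjusted p = 0.00013), changes that differed by -1.17 (SE 0.09, adjusted p = 4.9e-10). Of 12 regulators listed, 10 were tested, of which 6 rose and 2 fell in intramuscular cells and 2 rose and 3 fell in subcutaneous cells, where rescaling left 0 and 3. Over all genes 19.9% rose and 40.2% fell in intramuscular cells, and 26.1% rose and 26% fell in subcutaneous cells.

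**Figure D5:**
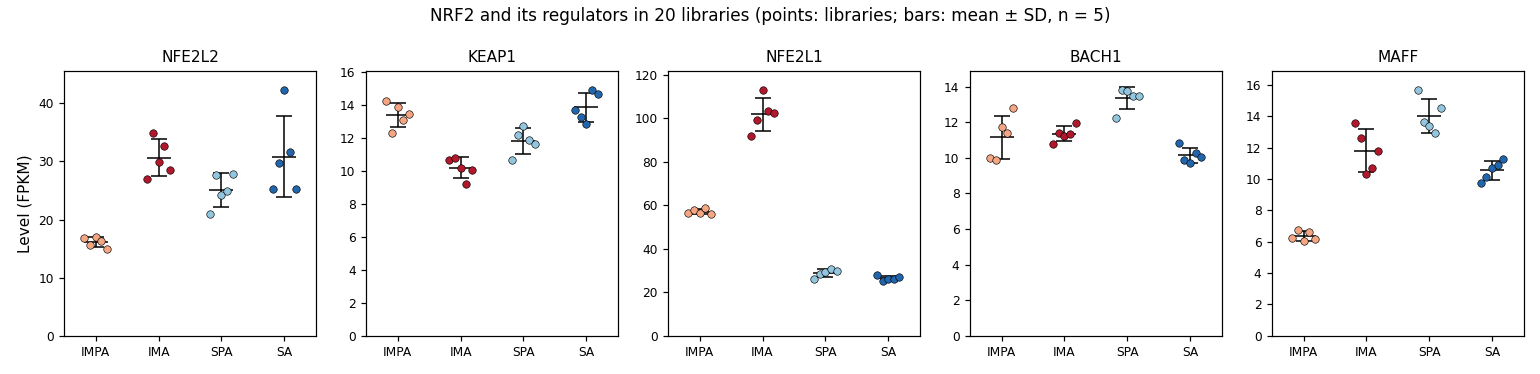
Level (FPKM, linear axes from 0) of NFE2L2, KEAP1, NFE2L1, BACH1 and MAFF in the 20 libraries, with points for libraries and bars for the mean ± SD of 5 libraries per group. NFE2L2 is lowest in IMPA and overlaps among the other groups, and NFE2L1 is higher in both intramuscular groups than in both subcutaneous groups.

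Other genes of the same pathways were counted over whole lists. Together these lists held 142 genes, of which 124 were tested. In intramuscular cells 36 rose and 46 fell (66.1% called, beside 60.1% of all genes), and in subcutaneous cells 39 rose and 42 fell (65.3%, beside 52.1%). Between depots, 53 were higher and 39 lower in SPA than in IMPA (74.2%, beside 75.1%), and 55 higher and 36 lower in SA than in IMA (73.4%, beside 72.4%). The median log2 difference of these genes was 0.04 between SPA and IMPA and 0.11 between SA and IMA, beside -0.05 and 0.09 over all genes.

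Among 15 further NRF2 targets tested, 10 were higher and 2 lower in SPA than in IMPA, and 9 higher and 2 lower in SA than in IMA. Over all genes 32.9% were higher and 42.3% lower in SPA, and 43.4% higher and 29% lower in SA. Over induction 4 of the 15 rose and 7 fell in intramuscular cells, or 6 and 5 after upper-quartile scaling, where 19.9% of all genes rose and 40.2% fell. In subcutaneous cells 6 rose and 6 fell, where 26.1% of all genes rose and 26% fell. SLC7A11, the cystine importer that feeds glutathione synthesis, was 20.99 FPKM in IMA and 58.87 FPKM in SA, a log2 difference of 1.44 (SE 0.05, adjusted p = 8.6e-12). It rose by 0.69 in subcutaneous cells (SE 0.05, adjusted p = 5.5e-07), and its change was more positive there by 0.99 (adjusted p = 8.7e-09). UGDH fell in intramuscular cells (log2 fold change -0.49, SE 0.05, adjusted p = 9.1e-06). The glutathione transferase GSTM3 rose by 0.76 in intramuscular cells (SE 0.09, adjusted p = 1.6e-05) and was 1.40 higher in SPA than in IMPA (SE 0.05, adjusted p = 4.8e-11). AKR1B1, an aldose reductase, went the other way, at 197.9 and 246.4 FPKM in IMPA and IMA and 7.425 and 12.36 FPKM in SPA and SA. Its log2 difference was -4.56 between SPA and IMPA (SE 0.07, adjusted p = 1.5e-14) and -4.21 between SA and IMA (SE 0.05, adjusted p = 4.1e-17).

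Of 15 genes of glutathione synthesis and reduction, 4 rose and 4 fell in intramuscular cells, a balance that went from 6 and 2 to 3 and 6 with the scaling, and 8 rose and 4 fell in subcutaneous cells. Among all genes tested, 19.9% rose and 40.2% fell in intramuscular cells, and 26.1% rose and 26% fell in subcutaneous cells. CHAC1, which degrades glutathione, rose from 2.62 to 5.52 FPKM in subcutaneous cells (log2 fold change 0.85, SE 0.05, adjusted p = 3.3e-08). GSS, which completes glutathione, was 1.14 higher in SA than in IMA (SE 0.07, adjusted p = 1.1e-09), and the glutaredoxin GLRX was lower there (-1.60, SE 0.08, adjusted p = 3.7e-10). Of the 4 other glutathione peroxidases tested, 3 were higher and 1 lower in SA than in IMA, where 43.4% of all genes were higher and 29% lower. GPX1, the cytosolic form, was 0.81 higher in SPA than in IMPA (SE 0.04, adjusted p = 5.9e-10), beside the 2.28 of GPX3.

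Genes that supply NADPH, which glutathione reductase, TXNRD1 and NQO1 all use, fell in intramuscular cells in 8 of 10 cases, or in 6 after upper-quartile scaling, and rose in 2, where 40.2% of all genes fell and 19.9% rose. In subcutaneous cells 3 rose and 3 fell, and the changes were more positive there for 7 genes and more negative for 1. That split became 5 and 2 after upper-quartile scaling and 5 and 1 after quantile normalization. Among all genes tested, 26.1% rose and 26% fell in subcutaneous cells, and 34.6% had more positive and 20.7% more negative changes there. ME1, the cytosolic malic enzyme, was 14.82, 11.06, 37.3 and 33.26 FPKM in IMPA, IMA, SPA and SA, 1.51 higher in SA than in IMA (SE 0.04, adjusted p = 2.8e-13). PGD of the pentose phosphate pathway was higher in SA by 1.14 (SE 0.05, adjusted p = 1.7e-11). NADK, which makes NADP from NAD, fell in intramuscular cells from 30.43 to 21.29 FPKM (log2 fold change -0.50, SE 0.05, adjusted p = 3.7e-06).

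Of 16 thioredoxins, peroxiredoxins and related genes, 7 were higher and 7 lower in SPA than in IMPA, and 6 higher and 8 lower in SA than in IMA. Among all genes tested, 32.9% were higher and 42.3% lower in SPA, and 43.4% were higher and 29% lower in SA. PRDX1, an abundant cytosolic peroxiredoxin and a substrate of SRXN1, was 612 FPKM in IMA and 2131 FPKM in SA, a log2 difference of 1.80 (SE 0.06, adjusted p = 4.7e-12). SESN2, a stress-induced sestrin, rose in subcutaneous cells from 4.24 to 10.03 FPKM (log2 fold change 1.07, SE 0.06, adjusted p = 3.3e-08). SOD1, the cytosolic superoxide dismutase, rose there by 0.51 (SE 0.05, adjusted p = 4.4e-06), while SOD2 fell, and in SPA it was lower than in IMPA (-0.41, SE 0.03, adjusted p = 2.8e-07). Of 24 peroxisome genes, the compartment of CAT, 10 were higher and 7 lower in SPA than in IMPA, up to 15 and 7 under another scaling, and 10 higher and 6 lower in SA than in IMA. The same shares of all genes apply to them.

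Around HMOX1, 15 genes of heme and iron handling were tested, of which 6 rose and 5 fell in intramuscular cells, or 7 and 2 after upper-quartile scaling, and 4 rose and 7 fell in subcutaneous cells. Among all genes tested, 19.9% rose and 40.2% fell in intramuscular cells, and 26.1% rose and 26% fell in subcutaneous cells. FTL, the ferritin light chain that stores iron, rose in subcutaneous cells from 646.4 to 921.7 FPKM (log2 fold change 0.51, SE 0.05, adjusted p = 2.2e-06), opposite to HMOX1. SLC40A1, the iron exporter, rose in intramuscular cells by 0.75 (SE 0.05, adjusted p = 2.4e-07). BLVRB, which encodes a biliverdin reductase, was 1.67 higher in SPA than in IMPA (SE 0.06, adjusted p = 3.1e-11). Of 13 selenoprotein and selenocysteine genes tested, 1 rose and 7 fell in intramuscular cells, and 2 rose and 4 fell in subcutaneous cells, beside the same shares of all genes. SEPSECS, which completes selenocysteine on its transfer RNA, was lower in SPA than in IMPA (-1.40, SE 0.06, adjusted p = 2e-10), where the selenoenzymes TXNRD1 and GPX3 were higher.

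Sums of other cell type markers moved with the groups as well. The sum of 8 stromal and fibroblast markers lay between 6108 and 8610 FPKM in IMPA, 7672 and 8510 FPKM in IMA, 12685 and 13430 FPKM in SPA, and 12136 and 12946 FPKM in SA. Like NQO1, GPX3, CAT, TXNRD1 and GCLM, this sum was higher in every subcutaneous library than in every intramuscular one, and its part in their levels was not tested. Within it, DCN had means of 660.5, 535.1, 5441 and 4120 FPKM in IMPA, IMA, SPA and SA, whereas COL3A1 had 4444, 5242, 4303 and 4975 FPKM. Of the 8 markers, 5 were called higher and 0 lower in SPA than in IMPA, where 32.9% of all genes were higher. In SA 7 were higher and 0 lower than in IMA, where 43.4% of all genes were higher. Of 8 macrophage and leukocyte markers, 7 were in the table, and their sum lay between 4.46 and 8.41 FPKM in IMPA, 9.806 and 12.39 FPKM in IMA, 15.7 and 18.3 FPKM in SPA, and 12.83 and 15.81 FPKM in SA. Most of this sum came from CD14, with means of 5.914, 9.929, 14.45 and 12.96 FPKM in IMPA, IMA, SPA and SA. PTPRC, CSF1R, AIF1 and TYROBP did not average above 0.08707 FPKM in any group. PTPRC was listed at 0 in every IMA library and TYROBP in every IMPA library, and the lowest sum was that of IMPA5. The sum of 6 endothelial markers stayed at or below 1.206 FPKM. That of 8 proliferation markers lay between 121.9 and 153.6 FPKM in IMPA, 112 and 137.2 FPKM in IMA, 47.09 and 53.99 FPKM in SPA, and 249.7 and 280.7 FPKM in SA. In subcutaneous cells it moved opposite to HMOX1, SOD2 and SELENBP1 and in the direction of SRXN1, GPX3, TXNRD1, GCLC and NQO1. There 8 of the 8 markers were called higher in SA, as were 26.1% of all genes. The part of this sum in the levels of the 10 genes was not tested.

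Genes with the pattern most like each member were found as the smallest root mean square distance between log2(FPKM + 1) values, centred per gene, over the 20 libraries. For GCLM this was PPT1, at a distance of 0.06 beside an SD of GCLM of 0.42, with means of 57.5, 36.45, 76.12 and 76.4 FPKM in IMPA, IMA, SPA and SA. The nearest genes were CTSV for NQO1 (distance 0.11), RPP14 for GCLC (0.07), PHF1 for TXNRD1 (0.08), GFPT1 for SRXN1 (0.09), PRSS35 for GPX3 (0.14), MLF1 for CAT (0.10) and LRP6 for SELENBP1 (0.11). For HMOX1 the nearest was LOC102190983 (0.38) and for SOD2 SLC2A6 (0.43). Distances are not comparable between members that vary by different amounts, as the SD over the 20 libraries was 1.21 for HMOX1 and 0.96 for SOD2 but 0.27 for SRXN1 and 0.15 for GCLC. None of the nearest genes was another member, and the distances are a description without a test.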

How the data were processed

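Total RNA was sequenced from strand-specific dUTP libraries of 20 cell samples, 5 each of IMPA, IMA, SPA and SA. Per the study's methods and the submitters' processing notes, reads were aligned to the goat genome with HISAT2 2.0.4 and quantified with StringTie 1.3.1, and the authors deposited FPKM values per transcript. The files hold no counts, so the fragments behind a single value are unknown, although the study lists reads per library. FPKM sums per library lay between 527426 and 596669, of which the lncRNA LNC_010228 took 20.0% to 29.1%. The mapped share given by the study was higher in every IMPA than IMA and every SPA than SA library, and in every IMPA than SPA and every IMA than SA library, so it cannot be told apart from the stage or the depot.

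FPKM of 43766 mRNA transcripts were summed per symbol, and genes with a mean of at least 1 FPKM were tested on log2(FPKM + 1), which understates changes of low genes. limma 3.58.1 with a variance trend (R 4.3.3) was fitted to the 10 libraries compared, and to all 20 for the interaction, the change in SA minus SPA less that in IMA minus IMPA. P values are two-sided and Benjamini-Hochberg adjusted over all genes tested, with a threshold of 0.05. Alternatives were a pseudocount of 0.1, other filters on low levels, 3 other scalings, single transcripts, all 4 groups in the fit, no variance trend, a linear model with Ballgown's library-size term, a replicate block, and leaving out libraries singly or SPA1 with SA5. The library-size term, named after Ballgown, was recomputed here for each library. It was the sum of log2(FPKM + 1) over the tested genes up to their upper quartile. Whether this term followed the groups compared was not tested. Values were summarised in Python 3.11.15, and the limma fit in R was tested on simulated data.

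Named were the 10 genes, up to 2 genes per pathway list and comparison with the smallest adjusted p and no overlap, NFE2L2 and KEAP1, and the nearest gene of each member. Genes named among those low in IMPA5, single markers, and values of named genes in comparisons other than the one that named them were chosen after their values were seen. Members and lists were chosen with earlier results of these data known. Replicates are called biological by the study, but which goat gave which library is not stated, so p values measure the spread between these libraries. Same-numbered libraries of 2 groups correlated between -0.242 and 0.122 in their deviations, with at most 2 of 5 over 0.1 in a comparison, and were not paired. The lncRNA tables entered only the FPKM sums, the share of LNC_010228 and the transcript-level alternative. Not analysed here were miRNA and qPCR data.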

Additional observations from a re-analysis of the deposited data

Results flagged for a closer look

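Of the 40 sets of 5 libraries, 10 genes in 4 groups, 4 held a library set apart by a gap that Dixon's test reaches by chance in about 1 in 20 sets. GCLC was 2.356 FPKM in IMA2, below the other IMA libraries, with a gap of 0.893 of the group's range. TXNRD1 was 35.27 FPKM in IMA3, with a gap of 0.748. GPX3 was 399.7 FPKM in SPA1, with a gap of 0.754. CAT was 22.25 FPKM in SA1, with a gap of 0.731. SOD2 in IMPA was not among them, with values of 29.85, 157.1, 211.1, 324.0 and 338.3 FPKM.

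For 5 genes the change over induction differed between the cell types in the interaction test of limma. On the log2 scale, the subcutaneous minus the intramuscular change was 0.46 for GCLC (adjusted p = 8.1e-05), 0.60 for GCLM (adjusted p = 8.9e-09), -0.27 for TXNRD1 (adjusted p = 0.00315), -0.49 for CAT (adjusted p = 7.7e-06) and -0.60 for SELENBP1 (adjusted p = 2.2e-08). All 5 stayed called when any 1 library was left out.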

How the results depend on the processing

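Of the values for single members under the alternatives, 1115 kept their direction and side of the threshold, 46 fell below it, 8 passed it and 11 turned. An ordinary linear model per gene, with Ballgown's library-size term, moved most. It called 1331 genes between IMA and IMPA, 792 between SPA and IMPA, 5399 between SA and IMA and 3774 in the interaction, in place of 6867, 8588, 8277 and 6319, and the members called became 3 between IMA and IMPA, 2 between SPA and IMPA and 3 in the interaction. Between SA and IMA it lost the calls of GCLC and SRXN1. Between SPA and IMPA it gave 3.70 for HMOX1 in place of 1.58, yet that call was lost (adjusted p = 0.121). It also turned NQO1 between IMA and IMPA to -0.16, and in the interaction HMOX1 to -0.38 and SRXN1 to 0.26. Quantile normalization turned GCLC between SPA and IMPA to 0.0381 and NQO1 in the interaction to -0.00737. Without SPA1 GCLM between SA and SPA was 0.00318, and without SPA1 and SA5 together 0.00907, with SRXN1 in the interaction at 0.000356. The interaction became -0.00303 for HMOX1 without IMPA2, 0.0129 for SRXN1 without IMA1 and 0.21 for SOD2 without IMPA5. Of these turned values, none was called. The cause was not tested.

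Leaving out each library in turn gave 6362 to 6878 genes called between IMA and IMPA, 5441 to 5872 between SA and SPA, 8334 to 8536 between SPA and IMPA, 7964 to 8187 between SA and IMA, and 6054 to 6381 in the interaction. Members that turned ranged from -0.0434 to 0.00318 for GCLM between SA and SPA, and in the interaction from -0.00303 to 0.18 for HMOX1, from -0.0703 to 0.0129 for SRXN1 and from -0.65 to 0.21 for SOD2. Members called were 7 to 9, 7 to 8, 8 to 9, 10 to 10 and 5 to 5. Replicate numbers did not pair the libraries. With the number as a block, 6826, 5602, 8530, 8059 and 6304 genes were called, GCLC between SPA and IMPA was lost (adjusted p = 0.0923) and SOD2 was gained (adjusted p = 0.045). Each library correlated best with its own number in 3 of 5 cases between IMA and IMPA and in 0 to 2 of 5 elsewhere. Without counts, the precision of low values such as those of GCLC is unknown.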
